A study of Arabidopsis thaliana with 17 samples.

Results

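Type I MADS-box genes of the M-gamma class, the class of PHE1, were examined for the repressive histone mark H3K27me3 in Arabidopsis thaliana endosperm and leaf. The set was named by gene family: 10 genes were listed (PHE1, PHE2, AGL34, AGL35, AGL36, AGL80, AGL86, AGL90, AGL92 and AGL96), and 9 of them were matched by symbol or synonym among 27444 nuclear protein-coding genes of the TAIR10.1 annotation, where PHE2 is entered as AGL38. AGL35 had no match and was not analysed here. Each gene was read over its body and over 3 kb on either side. The annotation used here gives no strand, so the flanks are named by lower and higher coordinates, and one of them is the downstream flank.

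The profiles were made by CUT&RUN, in which an antibody directs a nuclease that cuts and releases the chromatin around it. Endosperm nuclei of 6N content were sorted by DNA content from F1 seeds of Col mothers and Ler fathers at 4 days after pollination, and were used after formaldehyde fixation or unfixed (2 H3K27me3 and 2 H3 libraries each). Leaf nuclei of 2N, 4N and 8N content came from 3-week-old Col plants (1 library per antibody). The labels name no mutant and no other treatment, and Col alleles are maternal and Ler alleles paternal in every endosperm library. The files used here cover 5 of 17 samples by a domain list each, all H3K27me3, and 1 table gives allele-assigned reads of the endosperm H3K27me3 and H3 libraries as a pool. Libraries with IgG, and those of nuclei from seed coat and embryo, were not analysed here.

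As background, Polycomb repressive complex 2 sets H3K27me3, and the seed form of this complex, with MEA and FIS2, acts in the central cell and the endosperm. PHE1 was identified as a target of that complex and is an imprinted gene expressed mainly from the paternal allele, while AGL36 is an imprinted gene expressed mainly from the maternal allele. M-gamma proteins pair with M-alpha MADS-box proteins: AGL80 acts with AGL61 in the central cell, and AGL62, an M-alpha protein, restrains the cellularization of the endosperm.

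The 5 lists held between 5878 domains (leaf) and 8403 domains (unfixed replicate 2), and unfixed replicate 2 stood apart from the others, with a median domain length of 1200 bp against 1800 to 2250 bp. The table assigned 12189039 H3K27me3 reads and 7638577 H3 reads to a parent, of which Col took 90.4% and 81.2%, where a maternal to paternal genome dosage of 2 to 1 alone would give 66.7%. A preference of mapping for Col, or reads from maternal tissue, was not tested. Reads that near-identical copies of these genes could share were not tested either, and the files do not give the depth of each library.

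The family fell into marked and unmarked members. Marking in a list required that its domains take up 50% or more of the gene body. PHE1, PHE2, AGL86, AGL92 and AGL96 were marked in all 4 endosperm lists, and AGL34, AGL36, AGL80 and AGL90 were marked in none. The count of 5 of 9 members stands beside 11.9% of all genes marked in all 4 endosperm lists, and the 4 of 9 members marked in no list, leaf included, stand beside 69.1%. In leaf, 4 of 9 members were marked, beside 20.3% of all genes. The 4 members marked in both tissues were PHE1, PHE2, AGL86 and AGL96, beside 9.58% of all genes. AGL92 was the 1 member marked in every endosperm list but unmarked in leaf, a class that held 2.31% of all genes. No member was marked in leaf alone, as 2.94% of all genes were. The members are few and sit partly side by side, so they are not independent draws from the genome.

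Body cover hardly varied among the endosperm lists. PHE1, AGL86, AGL92 and AGL96 were covered over 100% of the body in fixed replicates 1 and 2 and in unfixed replicates 1 and 2. PHE2 was covered over 100% in 3 of these lists and over 80.7% in unfixed replicate 2. Its mean was 95.2 ± 9.63% in endosperm, against 100% in leaf (SD, n = 4 lists, 1 leaf list). Leaf cover was likewise 100% for PHE1, AGL86 and AGL96 and was 0% for AGL92. All 4 unmarked members stood at 0% in all 5 lists. Leaf has 1 list, so no difference between the tissues was tested.

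**Figure D1:**
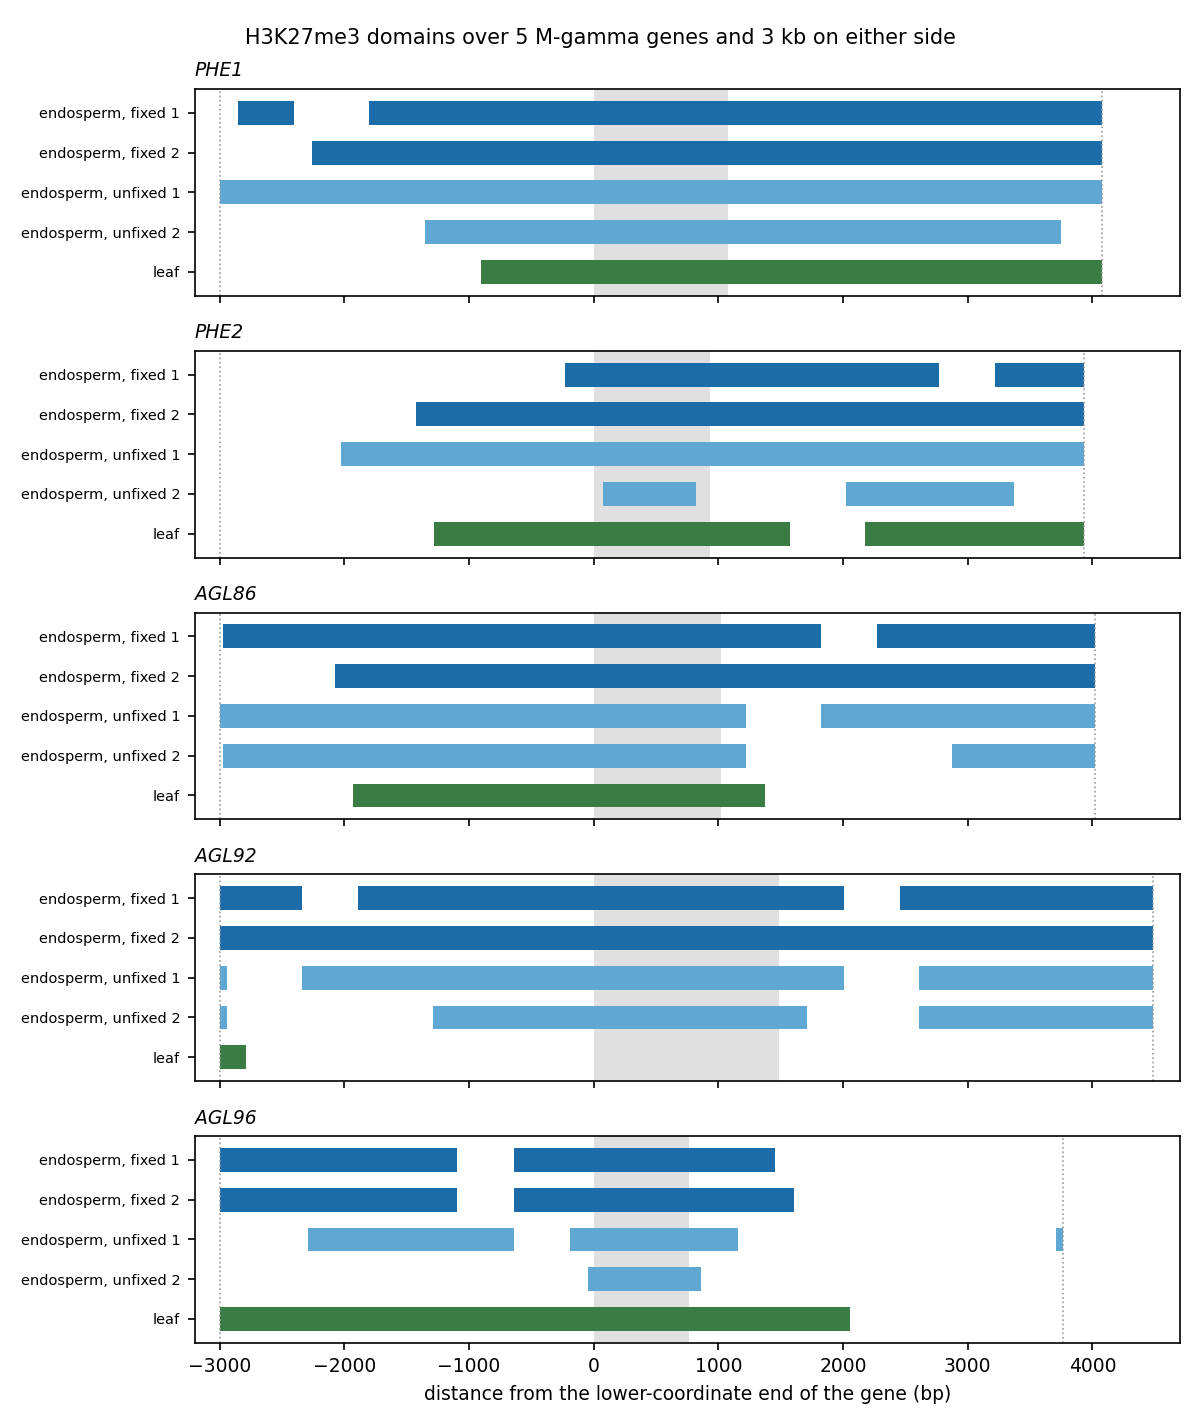
H3K27me3 domains over 5 M-gamma genes: each panel is a gene, each row a domain list (endosperm fixed 1 and 2, endosperm unfixed 1 and 2, leaf), the grey band the gene body and the dotted lines the ends of the 3 kb flanks; the x axis is distance in bp from the lower-coordinate end of the gene. Bars end at the flank limits, and they cover every body whole in every list except PHE2 in unfixed replicate 2 (80.7%) and AGL92 in leaf, where the row is empty over the gene. Of the endosperm rows, that of unfixed replicate 2 reaches least far beyond the gene at PHE1, PHE2 and AGL96.

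PHE1 lay inside a wide domain that ran past the gene on both sides, and farther on the higher-coordinate side. On TAIR10 this domain spanned chromosome 1, 24264451 to 24273000, in fixed replicate 1 (8550 bp), 24264001 to 24273000 in fixed replicate 2 (9000 bp), 24263251 to 24273000 in unfixed replicate 1 (9750 bp) and 24264901 to 24270000 in unfixed replicate 2 (5100 bp). The leaf domain spanned 24265351 to 24271950 (6600 bp). The higher end was the same in 3 endosperm lists, and the leaf domain ended between the 2 endosperm ends. Within its own list, the PHE1 domain was wider than 93.9% to 97.7% of domains in endosperm and than 87.2% in leaf. The enrichment value that the authors gave it exceeded that of 91.8% to 98.8% of the domains in the endosperm lists, and of 78.8% in the leaf list. Protein-coding neighbours met by the same domain were CYP96A3, a cytochrome P450 gene, in all 5 lists, AT1G65342 in 4 lists, and UBQ13, a polyubiquitin gene, in 3 endosperm lists.

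PHE2, the close relative of PHE1 on the same chromosome, had a domain of its own, separate from that of PHE1 in every list. It spanned 3000 bp in fixed replicate 1 (24254701 to 24257700), 6900 bp in fixed replicate 2 (24253501 to 24260400), 6150 bp in unfixed replicate 1 (24252901 to 24259050) and 750 bp in unfixed replicate 2 (24255001 to 24255750). In leaf it spanned 2850 bp (24253651 to 24256500). The leaf length thus lay within the range of the endosperm lists. The domain also met XTH17, a gene for a cell wall enzyme, in the 3 endosperm lists other than unfixed replicate 2, and in leaf XTH17 lay in the next domain (24257101 to 24259950). Within endosperm, the PHE2 domain passed 17.2% to 92.2% of its list in length, so its width had no fixed place among domains.

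AGL86 and AGL92 are neighbours on chromosome 1 and shared 1 domain only in fixed replicate 2, where it spanned 16500 bp (11316451 to 11332950) and met TRM9, AT1G31620, ROPGEF14 and AT1G31660 as well. The other 3 endosperm lists split it. AGL86 lay in domains of 4800 bp (11315551 to 11320350) in fixed replicate 1, 9450 bp (11310301 to 11319750) in unfixed replicate 1 and 4200 bp (11315551 to 11319750) in unfixed replicate 2. AGL92 lay in domains of 3900 bp (11320801 to 11324700), 4350 bp (11320351 to 11324700) and 3000 bp (11321401 to 11324400) in those lists, and was the only protein-coding gene that each of these met. In leaf, a domain of 3300 bp (11316601 to 11319900) met AGL86 and AT1G31620 and ended 2792 bp short of AGL92. The pair was thus marked as neighbours in endosperm, and in leaf the cover stopped between the genes. Domains took up 77.5 ± 23.3% of the lower flank of AGL92 in endosperm (SD, n = 4) and 6.97% in leaf, and 83.8 ± 12.5% of its higher flank in endosperm and 0% in leaf.

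AGL96, on chromosome 5, had the narrowest endosperm domains of the 5 marked members in each list other than unfixed replicate 2, where PHE2 was narrower. They spanned 2100 bp in fixed replicate 1 (1981801 to 1983900), 2250 bp in fixed replicate 2 (1981801 to 1984050), 1350 bp in unfixed replicate 1 (1982251 to 1983600) and 900 bp in unfixed replicate 2 (1982401 to 1983300). In leaf a single domain of 7050 bp (1977451 to 1984500) took in AGL96 and its neighbour AT5G06490, whereas both fixed lists had a second domain there (1977601 to 1981350), set apart from that over AGL96. Cover of the lower flank was 58.2 ± 39.5% in endosperm (SD, n = 4) and 100% in leaf, and cover of the higher flank was 17.4 ± 10.9% in endosperm and 43.2% in leaf. Its lower flank was covered over 85% in both fixed lists and over 61.4% and 1.43% in unfixed replicates 1 and 2, so the endosperm mean rests on lists that differ widely.

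The 4 unmarked members had no domain of any list in the gene or within 3 kb of it, as was true of 35.6% of all genes. AGL34, AGL36 and AGL90, relatives of each other on chromosome 5, and AGL80, a central cell gene on the same chromosome, make up this group. The body of AGL90 held no allele-assigned read of either antibody, and whether a domain could be called there was not tested. The nearest endosperm domain lay 5535 to 10785 bp from AGL36, 25565 to 32315 bp from AGL34, 15310 to 56696 bp from AGL80 and 15081 to 137481 bp from AGL90, across the 4 lists. In leaf the distances were 6135 bp, 29649 bp, 55196 bp and 73685 bp for the same genes. Within 100 kb on either side, domains covered 0% to 5.60% of the sequence around these 4 genes in endosperm, and 1.04% to 8.27% in leaf. Around the 5 marked members they covered 24.9% to 54.9% in endosperm and 22.6% to 33.9% in leaf. The chromosomes as a whole were covered over 10.6% to 17.9% in the endosperm lists and 17.2% in leaf. Unmarked members thus sat in stretches marked less than the chromosomes as a whole, and marked members in stretches marked more. The stretches of PHE1 and PHE2 overlap, as do those of AGL86 and AGL92, and each includes the member's own endosperm domains. Stretches around other marked genes were not compared.

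Flank cover depended on the list far more than body cover did. The lower flank was marked in all 4 endosperm lists for 1 of 9 members (AGL86), beside 7.20% of all genes, and the higher flank for 2 (PHE1 and AGL92), beside 7.27%. Without unfixed replicate 2 each count was 4, with no share of all genes set beside it. The domains of that list covered 12.7 Mb, against 19.8 to 21.3 Mb in the other endosperm lists. In leaf the lower flank was marked for 2 members (AGL86 and AGL96) and the higher flank for 2 (PHE1 and PHE2), beside 19.5% of all genes in each case. The higher flank of PHE1 was covered over 100% in 3 endosperm lists and 88.8% in unfixed replicate 2, against 100% in leaf. Its lower flank was covered over 75.2% in fixed replicates 1 and 2, over 100% and 45.2% in unfixed replicates 1 and 2, and over 30.2% in leaf. The lower flank of PHE2 held 7.60%, 47.6%, 67.6% and 0% in the 4 endosperm lists in the same order, and 42.6% in leaf.

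Fixed and unfixed lists could not be told apart by a test, since 2 lists against 2 give no p below 0.333. Body cover was at 0% or 100% in every endosperm list for 8 of 9 members, with domains wider than the bodies, so it carries no information on fixation there, and PHE2 averaged 100% in fixed and 90.4 ± 13.6% in unfixed lists (SD, n = 2 each; exact permutation p = 1, two-sided). Domains over AGL96 averaged 2175 ± 106 bp in fixed lists and 1125 ± 318 bp in unfixed lists, a gap larger than the spread of either pair (exact permutation p = 0.333, two-sided). The lower flank of AGL96 was covered over 85% in each fixed list and 31.4 ± 42.4% in unfixed lists (exact permutation p = 0.333, two-sided, n = 2 each). Between AGL86 and AGL92, the higher flank of AGL86 was covered over 92.5 ± 10.6% in fixed and 62.5 ± 24.7% in unfixed lists, and the lower flank of AGL92, which shares bins with it, had the same means (exact permutation p = 0.333, n = 2 each). Domains over PHE1 averaged 8775 ± 318 bp in fixed and 7425 ± 3288 bp in unfixed lists, which overlapped (exact permutation p = 1, n = 2 each).

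Allele-assigned reads of the pooled endosperm libraries gave the level of H3K27me3 over H3, summed over both parents. Levels are log2 values scaled to the table totals and set against the median of genes unmarked in every list, and a value was called at 2-fold or more with a 95% interval beyond 0. The interval covers counting error and the uneven spread of reads along a gene, not the variation between libraries. The domains were called on the same H3K27me3 libraries, so these levels are no independent check of the marking.

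Bodies of the 4 marked members with enough reads (at least 40 per antibody) lay between 1.35 and 1.96 on this scale, and those of the 3 unmarked members with enough reads between -0.87 and 0.19, with no overlap. AGL86 was highest at 1.96 (95% interval 1.49 to 2.42), with 857 H3K27me3 and 199 H3 reads. AGL92 followed at 1.85 (1.46 to 2.24), AGL96 at 1.56 (0.90 to 2.22) and PHE2 at 1.35 (0.82 to 1.87), and none of the 6 differences between these members had a 95% interval beyond 0. All 4 were called above, beside 19.1% of 19766 genes with enough reads. AGL34 stood at 0.19, AGL36 at 0.13 and AGL80 at -0.87 (-1.93 to 0.19), none of them called above, and none 2-fold below, as 1.21% of genes were. The median of all genes tested was 0.22, and that of genes marked in all endosperm lists was 1.65.

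PHE1 and AGL90 had too few reads in the body. In PHE1, 3 of 7 bins of 150 bp held no allele-assigned read of either antibody, and the body held 95 H3K27me3 and 19 H3 reads. AGL90 had none in any of its 8 bins, so neither its level nor its parental ratio could be read over the gene. Genes were therefore also read together with both flanks.

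Over the gene with both flanks, PHE1 was the highest member, at 2.47 (2.21 to 2.72, from 4121 H3K27me3 and 623 H3 reads), above 99.8% of all genes tested. Only 95 of these H3K27me3 reads and 19 of these H3 reads lay in the body, so this is mainly a value of its flanks. AGL86 stood at 2.08 (1.88 to 2.28), AGL92 at 1.93 (1.74 to 2.12), PHE2 at 1.12 (0.90 to 1.34) and AGL96 at 1.09 (0.80 to 1.37). The windows of AGL86 and AGL92 share bins between the genes, so these values are not independent of each other. Of the 10 differences between marked members, 8 had a 95% interval beyond 0; those between AGL86 and AGL92 (0.15, -0.13 to 0.43) and between PHE2 and AGL96 (0.04, -0.32 to 0.40) did not. All 5 marked members were called above, beside 15% of 25781 genes, and none of the 4 unmarked members, which lay between -0.49 (AGL90) and 0.18 (AGL36). None of the 9 was called 2-fold below, beside 0.698% of genes. Set against the table totals instead, PHE2 (0.71) and AGL96 (0.67) were under 2-fold, and 3 members were called. Reads of PHE1 were denser relative to H3 on the higher-coordinate side: its lower flank stood 0.66 below its higher flank (95% interval of the difference -1.19 to -0.12, on the scale without centring).

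**Figure D2:**
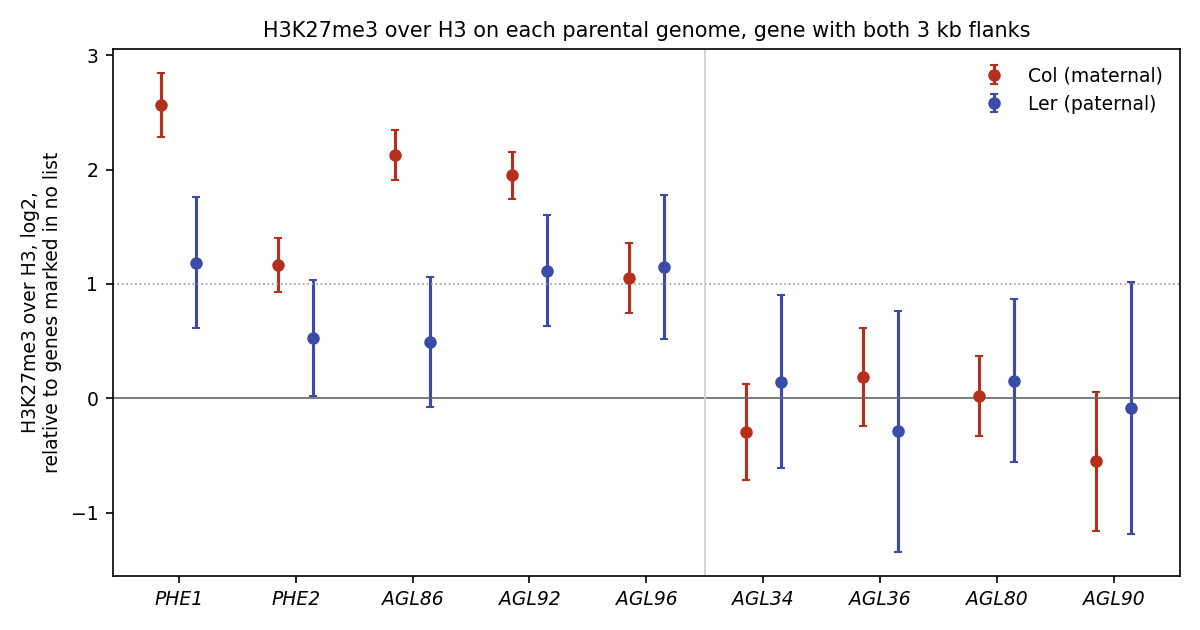
H3K27me3 over H3 on each parental genome, for 9 M-gamma genes read with both 3 kb flanks: the y axis is the log2 level relative to the median of genes unmarked in every list, points are Col (left of each pair) and Ler (right), bars are 95% intervals, and the dotted line is 2-fold. Col points of the 5 members on the left lie between 1.05 and 2.56 and those of the 4 unmarked members on the right between -0.55 and 0.19; Ler points of PHE1, PHE2, AGL86 and AGL92 lie below their Col points, while those of AGL96 lie together.

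Split by parent, the members differed in how far the mark lay on the maternal Col genome. PHE1 with its flanks had 3933 Col and 188 Ler reads in H3K27me3, against 507 Col and 116 Ler reads in H3. Its Col share was 95.4% in H3K27me3 (95% Wilson interval 94.8% to 96.0%) and 81.4% in H3 (78.1% to 84.2%). On the Col genome its level was 2.56 (2.28 to 2.84) and on the Ler genome 1.19 (0.61 to 1.76), each against unmarked genes on the same genome. Read this way, the Ler genome was called above for 3 of 9 members (PHE1, AGL92 and AGL96), beside 6.34% of genes. These calls rest on the centring: without it the Ler level of PHE1 was 0.02 (-0.55 to 0.59), and 0 members were called above on Ler. The uncentred scale uses the totals of both parents together. On it the median of unmarked genes on Ler lay at -1.17, so 0 there is not their level. With the table totals removed, 0 members were called either, though the values of these 3 lay just under 2-fold with intervals beyond 0.

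The parental ratio divides Col:Ler among H3K27me3 reads by Col:Ler among H3 reads of the same bins, on a log2 scale, so that dosage and any preference shared by both antibodies fall out, and values are relative to the median of genes unmarked in every list (0.90 for genes with both flanks). PHE1 had a ratio of 1.36 (95% interval 0.76 to 1.97), mainly from reads in its flanks, and AGL86 one of 1.62 (1.03 to 2.20). Both were called toward Col, beside 8.08% of 25454 genes. AGL92 at 0.82 (0.31 to 1.32) and PHE2 at 0.62 (0.08 to 1.15) leaned toward Col by less than 2-fold. AGL96 stood at -0.11 (-0.78 to 0.55). The 4 unmarked members lay between -0.48 (AGL90) and 0.46 (AGL36), none called, and no member was called toward Ler, beside 1.73% of genes. The median over genes marked in all endosperm lists was 0.76, and 34.1% of them were called toward Col. That median lay below the interval of AGL86, above that of AGL96, and inside those of PHE1, AGL92 and PHE2. Without centring, 5 members were called toward Col: PHE1 (2.26), PHE2 (1.52), AGL86 (2.52), AGL92 (1.72) and AGL36 (1.36). The median of unmarked genes lay at 0.90 on that scale, near the 2-fold limit. No share of all genes was set beside this count, so it is no result about the family.

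AGL86 had the most one-sided reads. Its body held 839 Col and 18 Ler reads in H3K27me3, against 160 Col and 39 Ler reads in H3. The ratio was 2.57 (1.17 to 3.98), the only body called toward Col among 7 tested members, beside 7.18% of 17982 genes. Of 2137 tested bodies marked in all endosperm lists, 33.2% were called, and of the 4 marked members tested, 1 was. On the Ler genome the body level of AGL86 was -0.48 (-1.84 to 0.89), while on Col it was 2.11 (1.60 to 2.62). The lower flank held 2131 Col and 14 Ler reads in H3K27me3, against 345 Col and 36 Ler reads in H3, for a ratio of 3.02 (1.51 to 4.52), above 99.2% of genes tested. Ler made up few of the H3 reads there as well (Col share 90.6%, 87.2% to 93.1%). The higher flank, toward AGL92, stood at 0.83 (0.05 to 1.60), and the lower flank exceeded it by 2.19 (0.50 to 3.88, without centring). The body exceeded the higher flank by 1.72 (0.11 to 3.32, without centring). The lean toward Col at AGL86 was thus larger over the gene and its lower side than over its higher side. The higher side leaned by less than 2-fold.

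AGL92 next to it had 1096 Col and 67 Ler reads in H3K27me3 over its body, against 252 Col and 39 Ler reads in H3. The body ratio was 0.44 (-0.57 to 1.45), and the body of AGL86 exceeded it by 2.14 (0.41 to 3.87). AGL92 was called above unmarked genes on both genomes, at 1.84 (1.42 to 2.25) on Col, beside 19.8% of genes, and 1.39 (0.42 to 2.36) on Ler, beside 9.01%. Without centring its Ler level was 0.10 (-0.87 to 1.07) and was not called, on a scale where the median of unmarked bodies was -1.29. On the Ler genome, the body of AGL92 exceeded that of AGL86 by 1.87 (0.19 to 3.54), and with both flanks by 0.63 (-0.12 to 1.37), an interval that includes 0.

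Relative to unmarked genes, a lean toward Col was not detectable at AGL96. Its ratio without centring was 0.79 (0.12 to 1.45) with both flanks, where unmarked genes had a median of 0.90. In its higher flank the uncentred ratio was 1.28 (0.22 to 2.33) and was called, where that median was 0.94. Its body had 286 Col and 59 Ler reads in H3K27me3, against 86 Col and 19 Ler reads in H3. The Col share was 82.9% (78.6% to 86.5%) in H3K27me3 and 81.9% (73.5% to 88.1%) in H3, so the antibodies differed by less than counting error. The Ler level of 2.23 (0.96 to 3.49) lay above 99.3% of genes tested, and the Col level was 1.45 (0.72 to 2.18). Without centring the Ler level was 0.94 (-0.33 to 2.20) and was not called, on a scale where the median of unmarked bodies was -1.29. On the Ler genome the body of AGL96 exceeded that of AGL86 by 2.70 (0.84 to 4.57), while its differences from AGL92 (0.84, -0.76 to 2.43) and PHE2 (1.61, -0.21 to 3.43) did not pass their error, and none of the 10 Ler differences with both flanks did. The Ler reads were spread over 4 bins, with at most 24 in a bin. The body ratio of -0.79 (-2.16 to 0.59) was not called toward Ler, where 2.55% of genes were. In the parental ratio, 2 of 6 pairs of marked bodies differed with a 95% interval beyond 0, both with AGL86: it exceeded AGL96 by 3.36 (1.40 to 5.33), and AGL92 as given above. With both flanks, 5 of 10 pairs differed, and PHE1 exceeded AGL96 by 1.47 (0.58 to 2.37). These intervals were not adjusted for the number of pairs.

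**Figure D3:**
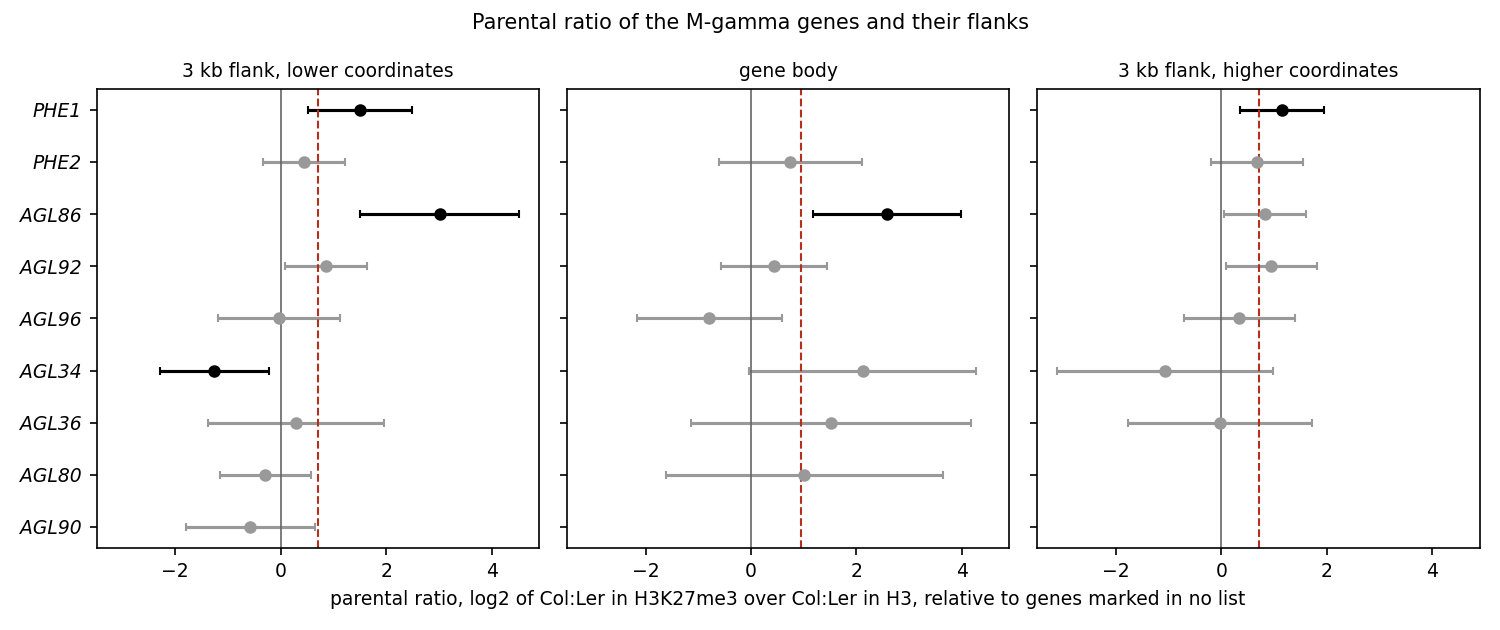
Parental ratio of the M-gamma genes in the lower flank, the gene body and the higher flank: the x axis is the log2 ratio relative to genes marked in no list (positive toward Col), bars are 95% intervals, black points were called and grey points were not, the dashed line is the median of genes marked in all endosperm lists, and genes with too few reads have no point. PHE1 (1.51 and 1.15 in its flanks) and AGL86 (3.02 in the lower flank, 2.57 in the body) are called toward Col, and the lower flank of AGL34 (-1.26) toward Ler.

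PHE1 leaned toward Col on both sides of the gene, at 1.51 (0.52 to 2.50) in the lower flank and 1.15 (0.35 to 1.95) in the higher one. Lower flanks were called toward Col for 2 members (PHE1 and AGL86), beside 7.57% of genes, and higher flanks for PHE1, beside 7.68%. Among genes marked in all endosperm lists these shares were 27.3% and 27.5%. With the table totals removed, the higher flank of PHE1 stood at 0.96 and was not called. The flanks differed by 0.36 (-0.92 to 1.63, without centring), less than their error. Its higher flank held 2676 Col and 127 Ler reads in H3K27me3, against 298 Col and 60 Ler reads in H3. The Ler level there was 1.56 (0.80 to 2.32), above 97.2% of genes tested. Without centring it was 0.40 and was not called, on a scale where unmarked genes had a median of -1.16. Relative to unmarked genes, PHE2 did not reach 2-fold in any interval. Its body stood at 0.75 (-0.61 to 2.11), with 464 Col and 27 Ler reads in H3K27me3, against 147 Col and 27 Ler reads in H3. Uncentred, its ratios ran from 1.38 in the lower flank to 1.65 in the body, where unmarked genes had medians of 0.94 and 0.91. PHE1 and PHE2 with flanks differed by 0.74 (-0.06 to 1.55), so a difference between these relatives was not detectable at this depth.

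**Figure D4:**
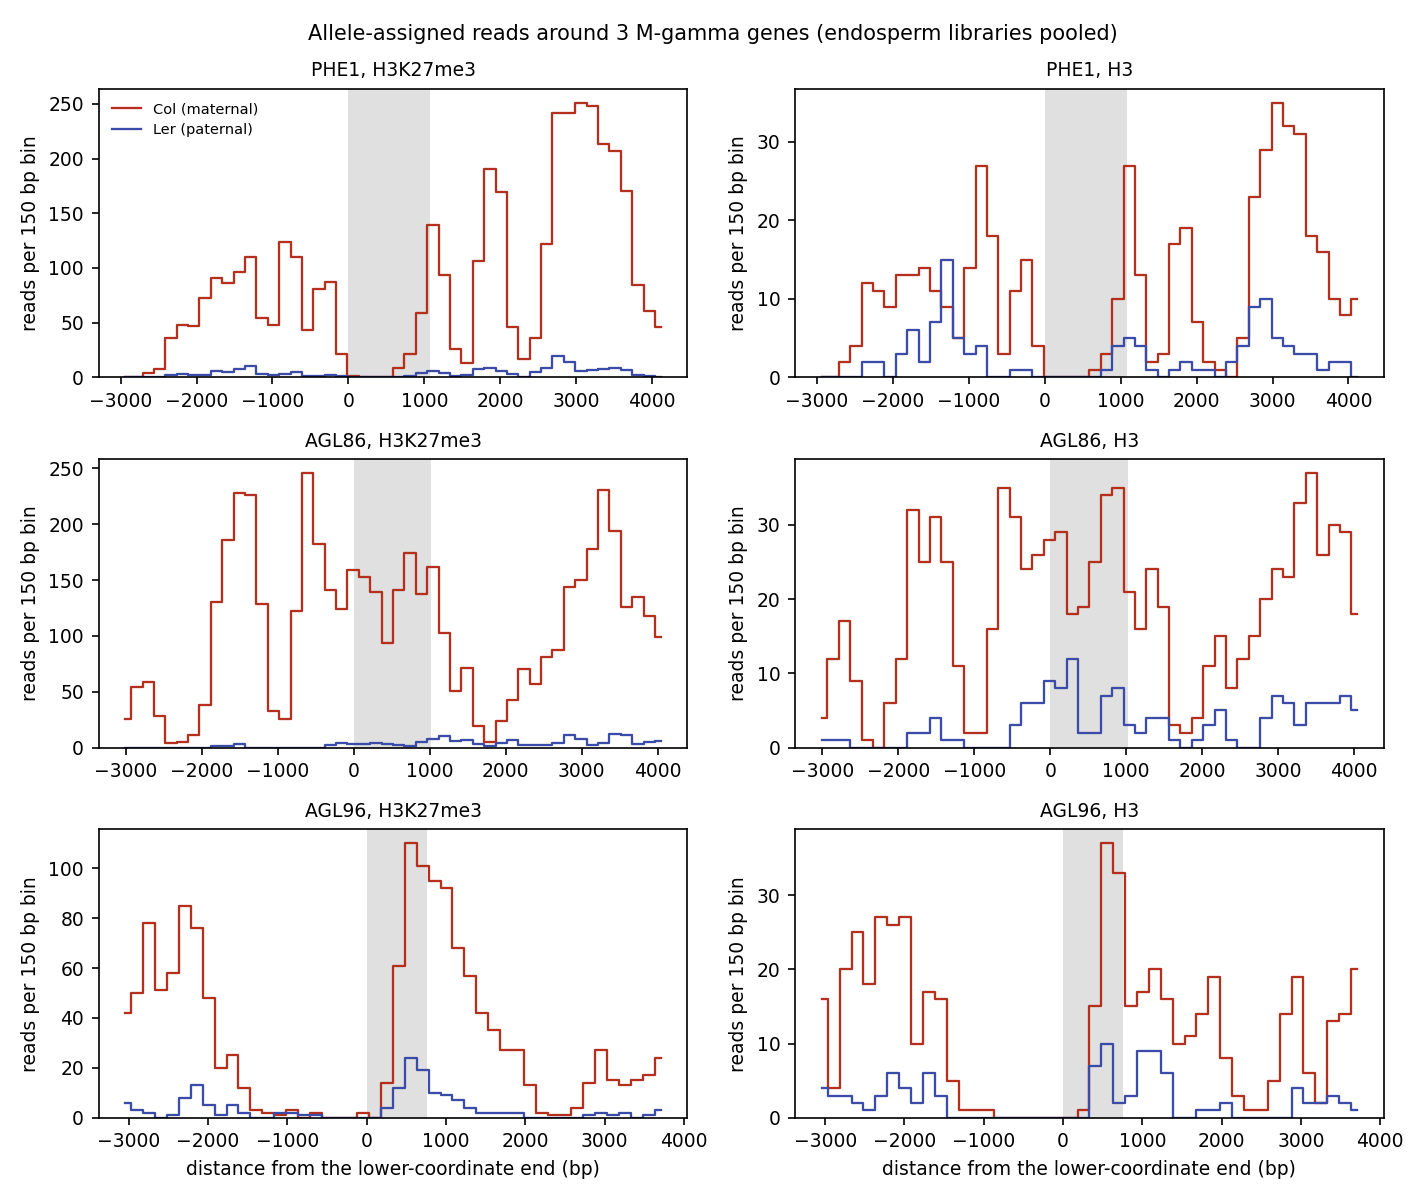
Allele-assigned reads per 150 bp bin around PHE1, AGL86 and AGL96, with H3K27me3 on the left and H3 on the right; red is Col, blue is Ler, the grey band is the gene body, the x axis is distance in bp from its lower-coordinate end, and y axes differ between panels. Col reaches 251 H3K27me3 reads in a bin beyond the higher end of PHE1, where Ler has at most 20, and Ler reaches 24 in the body of AGL96.

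Among the unmarked members, few Ler reads limited the parental ratio. AGL36, the maternally expressed gene, had 88 Col and 4 Ler reads in H3K27me3 over its body, against 60 Col and 16 Ler reads in H3, a ratio of 1.52 (-1.14 to 4.17). AGL80 had 46 Col and 4 Ler reads in H3K27me3, against 61 Col and 22 Ler reads in H3, and its ratio of 1.01 had an interval from -1.62 to 3.64. AGL34 had 133 Col and 6 Ler reads in H3K27me3, against 79 Col and 31 Ler reads in H3, a ratio of 2.12 (-0.04 to 4.28). Its lower flank went the other way, with 190 Col and 54 Ler reads in H3K27me3, against 224 Col and 51 Ler reads in H3. The flank ratio of -1.26 (-2.30 to -0.22) was called toward Ler, as for 2.85% of genes, and the body exceeded it by 3.34 (0.95 to 5.74, without centring). Without centring the flank stood at -0.32 and was not called.

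The other genes of the pathway were read from short lists. Of 5 other M-gamma genes, 2 were marked in all endosperm lists and 3 in leaf. Cover of AGL48 was 95.2 ± 9.68% in endosperm and 100% in leaf, and cover of AGL46 was 64.9 ± 11.0% in endosperm and 88.3% in leaf (SD, n = 4 endosperm lists). AGL41 was covered over 95.9%, 100% and 95.9% in fixed replicates 1 and 2 and unfixed replicate 1 and over 0% in unfixed replicate 2, against 100% in leaf. AGL87 and AGL95 were at 0% in every list. None of the 5 was called toward either parent with its flanks.

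Of 4 M-alpha genes, AGL23 was the one marked in endosperm, over 98.2 ± 3.57% (SD, n = 4), against 42.7% in leaf. It lies on chromosome 1 beyond PHE1, and its body ratio of 2.16 (0.79 to 3.53) was called toward Col. Such calls made up 7.18% of all bodies tested and 33.2% of those marked in all endosperm lists. AGL61, the partner of AGL80, was at 0% in every list, as AGL80 was, and so were AGL28 and AGL62. AGL28 had too few allele-assigned reads for a level even with both flanks, and whether a domain could be called there was not tested. The body of AGL61 was called above on Col, at 1.01 (0.41 to 1.61), beside 19.8% of genes. Over both parents it stood at 0.88 (0.34 to 1.42) and was not called. Of the Polycomb genes, MEA, the catalytic subunit of the seed complex, was marked in all 4 endosperm lists (71.1 ± 8.86%) and in leaf (88.4%), and FIS2 in leaf (77.2%) and in no endosperm list. FIE and MSI1 were marked in no list. FIS2 was the only Polycomb gene with enough reads for a body ratio, which was 1.07 (0.12 to 2.02) and was called toward Col. With both flanks the ratio of FIS2 was 0.34 (-0.24 to 0.93) and was not called.

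The genes whose cover was most like that of PHE1 were NAC010 and NAC007, transcription factor genes of the NAC family, with AT2G35580, BGLU31 and AT1G28640. Likeness was the mean absolute difference over 10 values (cover of the body and mean cover of the flanks in the 5 lists) and ran from 1.86 to 2.77 percentage points among 19754 candidate genes. With their flanks, all 5 were called toward Col, at 1.72 (NAC010), 1.68 (NAC007), 1.01 (AT2G35580), 1.44 (BGLU31) and 1.66 (AT1G28640), and the interval of AT2G35580 was 0.16 to 1.85. Calls toward Col made up 8.08% of all genes and 34.1% of genes marked in all endosperm lists, the class that cover like that of PHE1 selects, so the count is a description.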

How the data were processed

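Broad H3K27me3 domains were deposited by the authors as 1 list per library. The authors also deposited a table of read counts, whole numbers per 150 bp bin, split into Col and Ler for each antibody. Per the submitters' processing notes, the tools were Bowtie2, SICER, Trim Galore, deepTools 2.0 and Picard, and TAIR10 was the build, with no step assigned to any of them. Each domain carries a p-value (or q-value) deposited by the authors, at most 0.05, and an enrichment score deposited on a log scale of unstated base, used only to rank domains within a list. The sources used here do not give which libraries the counts pool, how a parent was assigned, or whether bins can share a read.

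Gene positions came from the TAIR10.1 table, whose nuclear chromosomes were taken to share TAIR10 coordinates: 20 of 20 developmental regulators were marked in leaf in place, and 7 and 5 when moved by 50000 bp up or down. Domain positions are the authors', counted from 1. Counts had 0.5 added, and the parental ratio and the Ler level also needed 10 Ler reads in H3. Counting errors were multiplied by 1.69 (ratio), 1.72 (Ler level) and 2.10 (Col level and both parents), the factors by which the left and right parts of 6066 unmarked gene bodies differed beyond counting error. Wilson intervals are at 95% and come from the counts alone, without these factors. Like all intervals here, they leave out variation between libraries. Columns pool libraries, so no count model was fitted and no test across replicates was possible for reads. Replicates are separate libraries, and nothing says whether they came from separate plants. Python 3.11.15, numpy 2.4.6, pandas 2.3.3 and scipy 1.17.1 were used, and the scripts were tested on simulated data. The members and the lists were chosen with earlier results of these data known. All 10 listed genes, the fixed pathway lists and the 5 genes most like PHE1 were named; AGL40 and AGL45 were not matched. The planned downstream flank was replaced by both flanks, since no strand was at hand, and the window of gene and flanks was added after the data were seen. No sequence is printed, since none was among the references used here.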

Additional observations from a re-analysis of the deposited data

Results flagged for a closer look

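Of 16 sets of 4 endosperm values that were not all equal, 4 held a list far from the other 3. Cover cannot pass 100%, and the flanks of neighbouring genes share bins, so no chance rate is set beside this count. In unfixed replicate 2, the body of PHE2 was covered over 80.7%, against 100% in the other lists, and the higher flank of PHE1 over 88.8%, against 100%. In both, the other lists tied at this ceiling, so any lower value would have been flagged. In fixed replicate 2, the lower flank of AGL86 was covered over 69.2%, against 99.2% to 100%, and the domain over AGL92 spanned 16500 bp, against 3000 to 4350 bp in the other lists.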

How the results depend on the processing

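The counts of 5 members marked over the body in endosperm and 4 in leaf were the same at 80% cover and with any overlap and, for endosperm, in fixed lists only, in any list and without each list in turn; with the upper 75% of domains by score they were 4 and 4. The gene with both flanks was chosen after seeing the data. No share of all genes was set beside the counts under changed settings in this section, so they describe the members only. The lower flank, marked for 1 member in endosperm and 2 in leaf, gave 0 and 1 at 80% cover, 4 and 5 with any overlap, and 3 and 4 for a 1 kb flank. Its endosperm count was 1 to 4 without each list, 4 in fixed lists and 5 in any list. The higher flank, marked for 2 members in endosperm and 2 in leaf, gave 1 and 2 at 80% cover, 5 and 4 with any overlap, and 1 and 3 for a 1 kb flank. Its endosperm count was 2 to 4 without each list, 4 in fixed lists and 4 in any list. With the replicate block, PHE2 body cover in fixed minus unfixed lists was again 9.63 percentage points (exact permutation p = 1, where pairs cannot go below 0.5), and the other members stayed at 0. Without each list in turn, the PHE2 difference ran from 0 to 19.3.

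Without centring, calls toward Col were 4 for bodies, 4 for lower flanks, 5 for higher flanks and 5 for genes with both flanks, and calls toward Ler in lower flanks fell to 0. With the table totals removed, calls toward Col in higher flanks were 0. Bodies called toward Col were 2 with no minimum on reads and 2 with the counting error alone, AGL34 being the one added. Either uncentred or scaled to the totals, 1 body (AGL80, -1.40) was 2-fold below and 3 genes with flanks were 2-fold above. Uncentred, 19 of 32 Ler levels changed sign, and no member was called above on Ler in any interval (2 bodies, 1 lower flank, 2 higher flanks and 3 genes with flanks when centred). With the table totals removed these counts were 2, 0, 1 and 0. The sign changed along with a call, lost or gained, for the lower flanks of AGL90 (-1.16) and AGL92 (-0.046) and, with flanks, for AGL34 (-1.02), AGL80 (-1.01), AGL92 (-0.048) and AGL96 (-0.019), since the centre itself lay at -1.17 for genes with flanks. The cause of the other changes was not tested. Few Ler reads limit the parental ratio of the unmarked members.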
